A study of Mus musculus with 16 samples.

Results

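The 8 genes described here encode the machinery that loads peptides on MHC class II molecules and shows them to helper T cells. They were taken by gene symbol from the count tables, as H2-Aa, H2-Ab1, H2-Eb1, H2-DMa, H2-DMb1, Cd74, Ciita and Ctss, and are 8 of the 23282 rows that each table holds. All 8 passed the filter on low counts, as did 14854 rows in all. The study asked how Bojungikgi-tang (BJIKT), a herbal water extract, acts on dermatitis in mice that eat few ligands of the aryl hydrocarbon receptor (AhR). Wild-type male C57BL/6N mice were bought at 3 weeks of age and adapted for 1 week. Skin RNA of 4 mice per group was sequenced, 16 libraries in all, and these 4 had been drawn at random from a larger group of mice. Cont mice ate normal chow, and LowAhR mice ate the low AhR ligand diet on paper bedding for 12 weeks. LowAhR+AD mice ate the same diet and were painted on the dorsal skin with 1% 2,4-dinitrochlorobenzene (DNCB), a contact hapten, 2 times a week for 10 weeks. LowAhR+AD+BJ mice received the diet, the DNCB and, by gavage, 1 g/kg of BJIKT per day. No treatment of the Cont and LowAhR skin with the solvent alone is described, so the hapten and its acetone and olive oil vehicle cannot be told apart. Paper bedding is described for the low AhR ligand diet only, so diet and bedding cannot be told apart. No gavage with water alone is described, so BJIKT and gavage cannot be told apart either.

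Class II molecules are pairs of an alpha and a beta chain that carry peptides from proteins taken up by the cell. H2-Aa and H2-Ab1 encode the alpha and beta chains of the A molecule, and H2-Eb1 encodes the beta chain of the E molecule. Cd74 encodes the invariant chain, which fills the groove until it is cut in the endosome, where cathepsin S, the product of Ctss, makes the late cuts. H2-DMa and H2-DMb1 encode the 2 chains of DM, which releases the last piece of the invariant chain so that a peptide can bind. Ciita encodes the coactivator that switches the class II genes on through proteins bound at the X and Y boxes of their promoters. In skin the main carriers of class II are Langerhans cells, dendritic cells and macrophages. Interferon gamma can induce it in other cells as well.

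In the GENCODE M21 annotation of GRCm38, the build that the submitters name as mm10, 5 of the 8 genes lie within 197.1 kb of chromosome 17, in the order H2-DMa, H2-DMb1, H2-Ab1, H2-Aa and H2-Eb1. H2-DMa spans chr17:34119541-34139101, H2-DMb1 chr17:34153072-34160230 and H2-Ab1 chr17:34257689-34269419. H2-Aa, on the minus strand, spans chr17:34282744-34287823, and H2-Eb1 chr17:34305867-34316674. Ctss lies at chr3:95526786-95556403 and Ciita at chr16:10480059-10528418. Part of H2-DMa overlaps Brd2 on the opposite strand and part of Ciita overlaps Dexi. Whether reads were counted by strand is not stated. Neither Brd2 nor Dexi was called in any comparison (log2 fold changes -0.30 to 0.16 for Brd2 and -0.54 to 0.16 for Dexi).

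The promoters below, read from RefSeq on GRCm38.p6, were searched for short cores of the X and Y boxes. Each window holds 250 bases before and 50 after the annotated start, written 5′ to 3′ along the gene. Such a window was given for 5 of the 8 genes. Capitals mark every match, on either strand, to GATTGG, the core of the Y box, or to GNAACT, a core of the X box. The H2-Aa window is chr17:34287774-34288073 (minus strand), the H2-Eb1 window chr17:34305617-34305916 (plus strand) and the H2-DMb1 window chr17:34152941-34153240 (plus strand).
H2-Aa: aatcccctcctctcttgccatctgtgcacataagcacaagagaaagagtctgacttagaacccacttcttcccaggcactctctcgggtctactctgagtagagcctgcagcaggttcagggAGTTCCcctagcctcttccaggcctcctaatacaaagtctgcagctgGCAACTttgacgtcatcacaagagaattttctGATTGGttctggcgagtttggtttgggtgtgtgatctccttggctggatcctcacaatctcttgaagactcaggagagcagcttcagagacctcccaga
H2-Eb1: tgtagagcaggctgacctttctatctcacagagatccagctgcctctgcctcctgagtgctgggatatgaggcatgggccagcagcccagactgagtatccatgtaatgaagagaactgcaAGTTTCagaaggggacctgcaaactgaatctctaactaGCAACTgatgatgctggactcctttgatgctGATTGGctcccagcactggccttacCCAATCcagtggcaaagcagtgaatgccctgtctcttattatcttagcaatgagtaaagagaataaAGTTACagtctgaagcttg
H2-DMb1: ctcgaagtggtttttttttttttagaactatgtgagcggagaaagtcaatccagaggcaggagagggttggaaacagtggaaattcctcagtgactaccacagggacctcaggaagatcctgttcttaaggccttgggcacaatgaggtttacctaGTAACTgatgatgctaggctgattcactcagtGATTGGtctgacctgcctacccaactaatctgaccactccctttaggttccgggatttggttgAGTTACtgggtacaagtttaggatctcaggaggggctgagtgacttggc
Counted from the start site, the forward X core began at -81 and the Y core at -49 in H2-Aa. In H2-Eb1 they began at -91 and -60, and in H2-DMb1 at -94 and -62. Of 32851 windows of this length, 16.1% held GATTGG, 42.8% held GNAACT and 6.79% held both. The 2 windows of H2-DMa differ from these 3: the first held neither motif, and the second held GATTGG at -199 and GNAACT at 29. They are chr17:34122582-34122881 and chr17:34125268-34125567, inside the annotated span of the gene (chr17:34119541-34139101). Other starts of H2-DMa were not read, so its lack of this arrangement holds for these windows only. Ctss, which is not a class II chain, held neither in its window (chr3:95526536-95526835, plus strand), printed here because it holds another element. Its capitals mark a GAAA repeat, 2 GAAA with any 2 bases between them, at -21, which 3.44% of all windows held.
Ctss: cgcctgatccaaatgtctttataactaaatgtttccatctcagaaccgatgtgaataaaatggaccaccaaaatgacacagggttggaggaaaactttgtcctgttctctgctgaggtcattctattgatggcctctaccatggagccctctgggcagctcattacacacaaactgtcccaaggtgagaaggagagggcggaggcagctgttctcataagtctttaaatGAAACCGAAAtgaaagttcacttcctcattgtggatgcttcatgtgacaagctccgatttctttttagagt
The motifs were chosen with these promoters in view, and a match describes letters only.

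Libraries held 7080508 to 13467477 counts, and both DNCB groups lay above both other groups in depth, so depth and DNCB cannot be told apart as the source of a difference. Levels are given as CPM, counts scaled by TMM to the same total in every library. QuantSeq reads about 1 fragment per transcript next to the poly(A) tail, so CPM compares genes without a division by length. LowAhR+AD replicate 1 stood apart from all other libraries: 38.2% of the genes that should have had 20 to 40 counts going by the rest of its group had none, against at most 13.6% elsewhere. Where leaving it out changed the call of a gene named below, the value or the call without it stands beside the result.

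**Figure D1:**
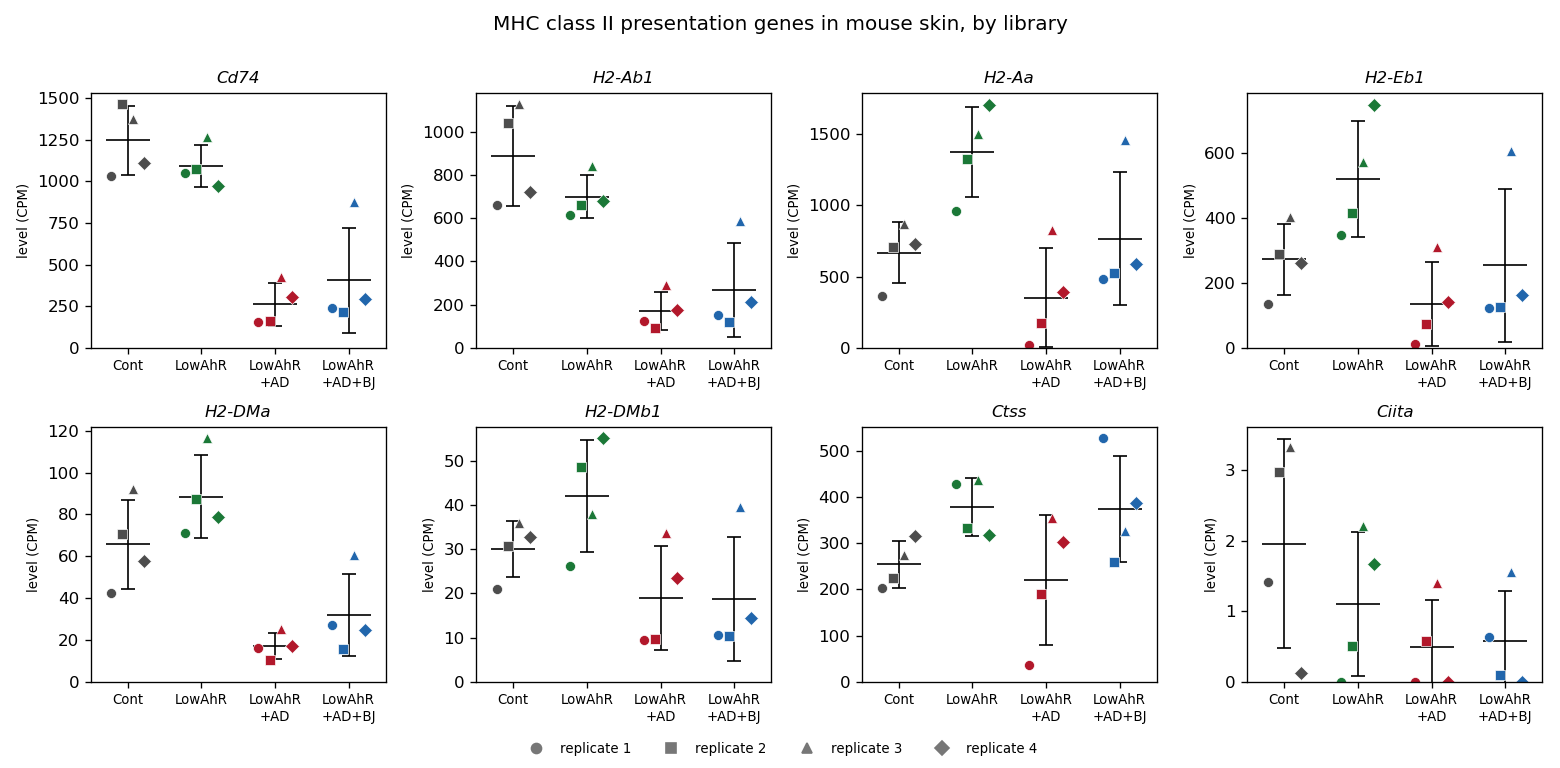
Level of each gene in CPM (linear axes from 0, each with its own scale) in the 16 libraries; symbols are replicates, the black mark is the group mean and its bar the SD (n = 4), cut off at 0. Cd74, H2-Ab1 and H2-DMa are lower in all 4 LowAhR+AD libraries than in any Cont or LowAhR library, and replicate 3 is the highest of the LowAhR+AD+BJ group in 7 of 8 genes.

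The invariant chain and the A beta chain showed the plainest pattern: both fell in DNCB-treated skin, by 4.17-fold for Cd74 and 4.12-fold for H2-Ab1 in LowAhR+AD against LowAhR. Cd74 (chr18:60803848-60812652) measured 1035, 1465, 1373 and 1112 CPM in the 4 Cont libraries and 1048, 1076, 1267 and 974.0 CPM in the LowAhR libraries. In the LowAhR+AD libraries it measured 153.2, 162.2, 426.2 and 306.1 CPM, and in the LowAhR+AD+BJ libraries 238.8, 214.3, 877.7 and 295.0 CPM. Every DNCB-treated library, with or without BJIKT, thus lay below every untreated one. H2-Ab1 measured 660.9, 1042, 1129 and 722.8 CPM in Cont and 614.5, 660.8, 842.5 and 681.9 CPM in LowAhR. It measured 124.3, 91.7, 290.0 and 173.5 CPM in LowAhR+AD and 150.1, 120.4, 589.4 and 211.0 CPM in LowAhR+AD+BJ. The 2 genes kept the same order of groups, with Cont highest and LowAhR+AD lowest.

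In LowAhR+AD against LowAhR, the log2 fold change of Cd74 was -2.06 (standard error 0.42, edgeR adjusted p = 0.00436) and that of H2-Ab1 was -2.04 (standard error 0.44, edgeR adjusted p = 0.00635). The groups did not overlap in either gene (exact permutation p = 0.0286, the smallest that 4 against 4 libraries can give). Against Cont the changes were -2.25 for Cd74 (edgeR adjusted p = 0.00128) and -2.39 for H2-Ab1 (edgeR adjusted p = 0.00129). Both calls held in both comparisons when any library was left out.

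H2-DMa, the alpha chain of the peptide exchanger, had the lowest log2 fold change of the 8 genes against LowAhR. It measured 71.2, 87.4, 116.7 and 78.6 CPM in LowAhR and 16.3, 10.2, 25.1 and 16.9 CPM in LowAhR+AD. Its levels were 42.2, 70.5, 92.3 and 57.6 CPM in Cont and 27.0, 15.5, 60.6 and 24.9 CPM in LowAhR+AD+BJ. The LowAhR+AD libraries lay below both untreated groups, with no overlap. Its log2 fold change was -2.37 against LowAhR (standard error 0.38, edgeR adjusted p = 0.00105), which is a 5.17-fold lower level, and -1.94 against Cont (standard error 0.37, edgeR adjusted p = 0.00163). Its partner H2-DMb1 measured 26.2, 48.6, 38.0 and 55.3 CPM in LowAhR and 9.39, 9.60, 33.6 and 23.5 CPM in LowAhR+AD, and the groups overlapped. It measured 21.1, 30.6, 35.9 and 32.7 CPM in Cont and 10.6, 10.4, 39.5 and 14.5 CPM in LowAhR+AD+BJ. Its change of -1.14 (standard error 0.46) did not pass the test (edgeR adjusted p = 0.109). The ratio of H2-DMa to H2-DMb1 within a library averaged 2.16 ± 0.35 (SD, n = 4) in Cont, 2.25 ± 0.77 in LowAhR, 1.06 ± 0.47 in LowAhR+AD and 1.82 ± 0.50 in LowAhR+AD+BJ. Without LowAhR+AD replicate 1 that group averaged 0.84 ± 0.19 (SD, n = 3). The near-identical copy H2-DMb2 averaged at most 0.38 CPM in any group, and how the authors counted reads that fit both copies is not stated.

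H2-Aa and H2-Eb1 moved together and spread widely among DNCB-treated libraries. H2-Aa measured 960.0, 1327, 1504 and 1706 CPM in LowAhR and 19.6, 174.8, 824.9 and 389.7 CPM in LowAhR+AD. H2-Eb1 measured 347.9, 416.8, 571.9 and 749.9 CPM in LowAhR and 12.2, 73.8, 311.0 and 140.7 CPM in LowAhR+AD. All LowAhR+AD libraries lay below all LowAhR libraries in both genes, and within LowAhR+AD the order of the libraries was the same. The log2 fold change was -1.96 for H2-Aa (standard error 0.67) and -1.96 for H2-Eb1 (standard error 0.68). Neither passed the test over all genes (edgeR adjusted p = 0.0612 and 0.0675), though both had an exact permutation p of 0.0286. Without LowAhR+AD replicate 1 both changes were -1.58, and H2-Aa passed (edgeR adjusted p = 0.0384) while H2-Eb1 did not (edgeR adjusted p = 0.0813). Without replicate 3, the highest library of that group in 8 of 8 genes, H2-Aa (-2.82, edgeR adjusted p = 0.0121), H2-Eb1 (-2.79, edgeR adjusted p = 0.0159) and H2-DMb1 (-1.57, edgeR adjusted p = 0.0377) passed. DESeq2 called H2-Aa and H2-Eb1 as well (adjusted p = 0.0365 and 0.0380 from DESeq2). Against Cont, where H2-Aa measured 364.6, 710.0, 866.0 and 731.1 CPM, the groups overlapped in both genes. In LowAhR+AD+BJ, H2-Aa measured 480.6, 526.6, 1461 and 587.8 CPM and H2-Eb1 122.8, 125.7, 606.6 and 161.6 CPM, with replicate 3 far above the other 3.

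Ctss, the protease gene outside the class II cluster, did not follow Cd74. It measured 202.4, 224.4, 274.2 and 314.9 CPM in Cont, 428.3, 332.5, 437.8 and 318.0 CPM in LowAhR and 36.6, 190.9, 354.0 and 301.8 CPM in LowAhR+AD. The value of 36.6 CPM is that of LowAhR+AD replicate 1. In LowAhR+AD+BJ it measured 528.3, 258.5, 326.5 and 386.4 CPM, so 2 of the 4 libraries lay above every LowAhR+AD library. None of its changes passed the test. Against LowAhR, the change in LowAhR+AD was -0.78 (edgeR adjusted p = 0.249) with all libraries and -0.43 without replicate 1. Against Cont the change was -0.20 with all libraries and 0.14 without replicate 1.

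Ciita, the coactivator gene, was near the limit of detection. Its counts were 11, 23, 27 and 1 in Cont, 0, 4, 17 and 14 in LowAhR, 0, 7, 18 and 0 in LowAhR+AD and 7, 1, 20 and 0 in LowAhR+AD+BJ. A count of 0 allows up to 3 counts, or 0.229 to 0.406 CPM depending on the library, and such limits cover counting error only. The group means ran from 1.96 ± 1.48 CPM (SD, n = 4) in Cont to 0.49 ± 0.66 CPM in LowAhR+AD. At this depth no change of Ciita was detectable, and edgeR's adjusted p was at least 0.423 in all 6 comparisons.

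**Figure D2:**
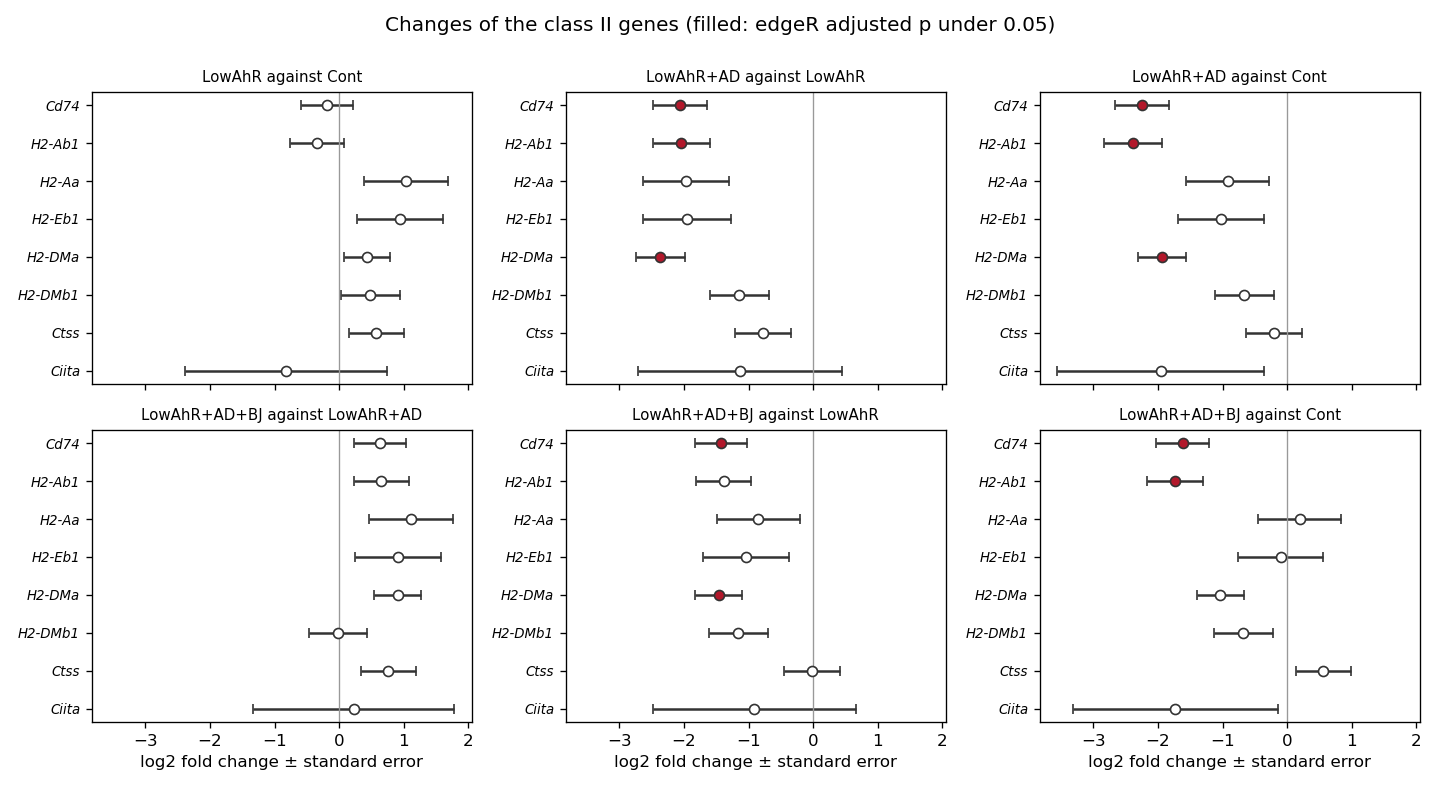
Log2 fold change with its standard error for each gene in the 6 comparisons between groups (edgeR, 16 libraries in 1 model); filled points passed the test over all genes. Filled points appear only among Cd74, H2-Ab1 and H2-DMa, all below 0 and all in comparisons of a DNCB group with Cont or LowAhR.

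In total, 3 of the 8 genes fell in LowAhR+AD against LowAhR, where edgeR called 12.6% of all genes tested, 923 of them lower. In 5 of the 8 genes all LowAhR+AD libraries lay below all LowAhR libraries, as they did in 9.85% of all genes tested. All 8 changes were negative, with a median of -1.96 (-1.58 without LowAhR+AD replicate 1), against a median of 0.04 over all genes tested. Against Cont, the same 3 genes fell, where 21.8% of all genes were called, and the median change was -1.48 (-1.11 without that library). The LowAhR+AD libraries lay below all Cont libraries in these 3, and in 11.8% of all genes tested. By group mean, LowAhR+AD was lowest in 7 of the 8 genes, with LowAhR+AD+BJ lowest in H2-DMb1. LowAhR was highest in H2-Aa, H2-Eb1, H2-DMa, H2-DMb1 and Ctss and Cont in Cd74, H2-Ab1 and Ciita. None of the 8 was called by edgeR between LowAhR and Cont, or between the 2 DNCB groups. The 8 genes are known to be made in the same cells and 5 are neighbours on a chromosome, so they are not independent of each other. In RNA from whole skin, fewer cells that carry class II and less class II RNA per cell cannot be told apart.

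The diet with its paper bedding, without DNCB, gave no call. In LowAhR against Cont edgeR called 0 of the 8 genes, as it called 0% of all genes (2031 of 14854 had an unadjusted p under 0.05). DESeq2 called 493 genes in this comparison, none of them among the 8. All 4 LowAhR libraries lay above all Cont libraries in H2-Aa (log2 fold change 1.04 ± 0.65 standard error, edgeR adjusted p = 0.524, exact permutation p = 0.0286). The same held for Ctss (0.58 ± 0.43, edgeR adjusted p = 0.614, exact permutation p = 0.0286). Of all genes tested, 5.68% had all LowAhR libraries above all Cont libraries. For H2-Eb1, with 134.4, 290.6, 403.5 and 261.9 CPM in Cont, 3 of the 4 LowAhR libraries lay above all Cont libraries (log2 fold change 0.94). Cd74 and H2-Ab1 had changes of -0.19 and -0.34, opposite in sign to H2-Aa. None of these 5 changes passed the test.

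The 2 chains of the A molecule stood in different proportions in the diet groups. The ratio of H2-Aa to H2-Ab1 counts was 0.55, 0.68, 0.77 and 1.01 in the Cont libraries and 1.56, 2.01, 1.79 and 2.50 in the LowAhR libraries. It was 0.16, 1.91, 2.84 and 2.25 in LowAhR+AD, where 0.16 is again replicate 1, and 3.20, 4.37, 2.48 and 2.79 in LowAhR+AD+BJ. Apart from LowAhR+AD replicate 1, every library on the low AhR ligand diet lay above every Cont library. The ratio of Cd74 to H2-Ab1, in contrast, stayed between 1.22 and 1.78 in all 16 libraries, while both genes fell several-fold. The ratio of H2-Eb1 to H2-Aa averaged 0.40 ± 0.05 (SD, n = 4) in Cont, 0.37 ± 0.05 in LowAhR, 0.45 ± 0.12 in LowAhR+AD (0.39 ± 0.03 without replicate 1) and 0.30 ± 0.08 in LowAhR+AD+BJ. These ratios were chosen after the values were seen and carry no test.

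**Figure D3:**
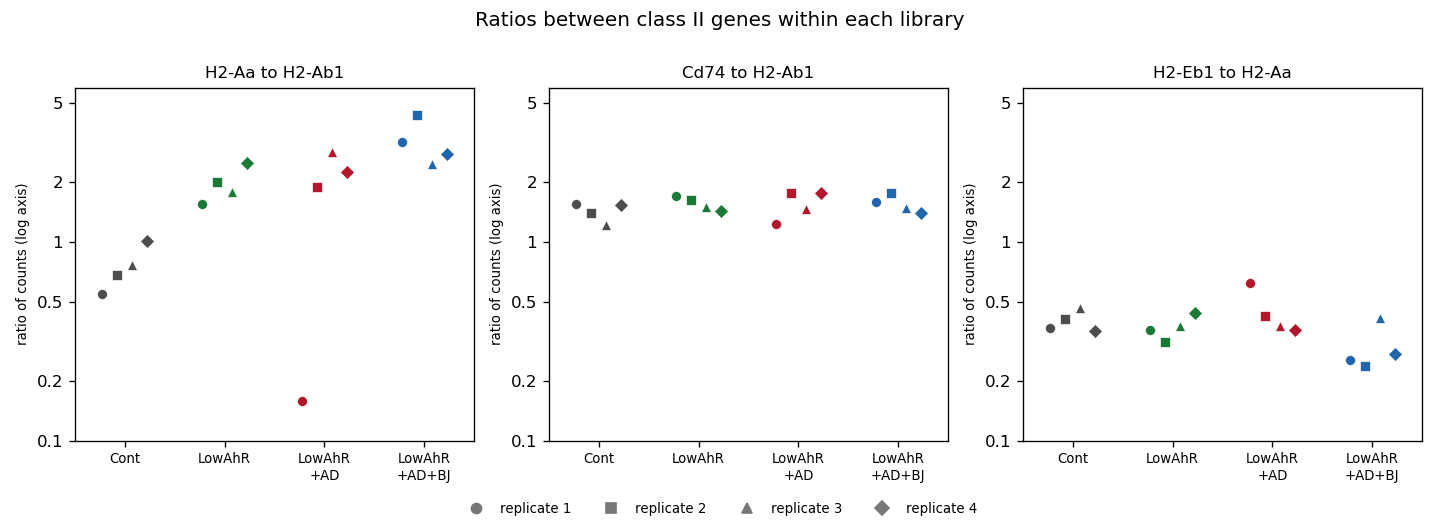
Ratio of counts between pairs of genes within each library (log axis, common to the 3 panels; symbols are replicates). H2-Aa to H2-Ab1 is at most 1.01 in Cont and at least 1.56 in the other groups except for LowAhR+AD replicate 1 at 0.16, whereas Cd74 to H2-Ab1 stays between 1.22 and 1.78.

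Over the 16 libraries, log2 CPM of Cd74 and H2-Ab1 correlated with Pearson's r = 0.99 and H2-Aa and H2-Eb1 with r = 0.98. On deviations from the group means the values were 0.96 and 0.97, so mice of a single group also varied in step. H2-Aa with H2-Ab1, the 2 chains of 1 molecule, had r = 0.65, and 0.60 on deviations from the group means. H2-DMa went with H2-Ab1 (r = 0.95) and Ctss with H2-Aa (r = 0.86) more than with Cd74 (r = 0.38). Over the 15 libraries without LowAhR+AD replicate 1, Cd74 with H2-Ab1 had r = 0.99, H2-Aa with H2-Eb1 0.96, H2-Aa with H2-Ab1 0.69 and H2-DMa with H2-Ab1 0.94. On deviations from the group means without that library, H2-Aa with H2-Ab1 had r = 0.89, so the 2 chains varied together within groups. The likeness of Ctss to H2-Aa rested in part on that library, since r was 0.50 without it and 0.01 for Ctss with Cd74. The libraries share depth and groups, and these values are a description without a test.

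**Figure D4:**
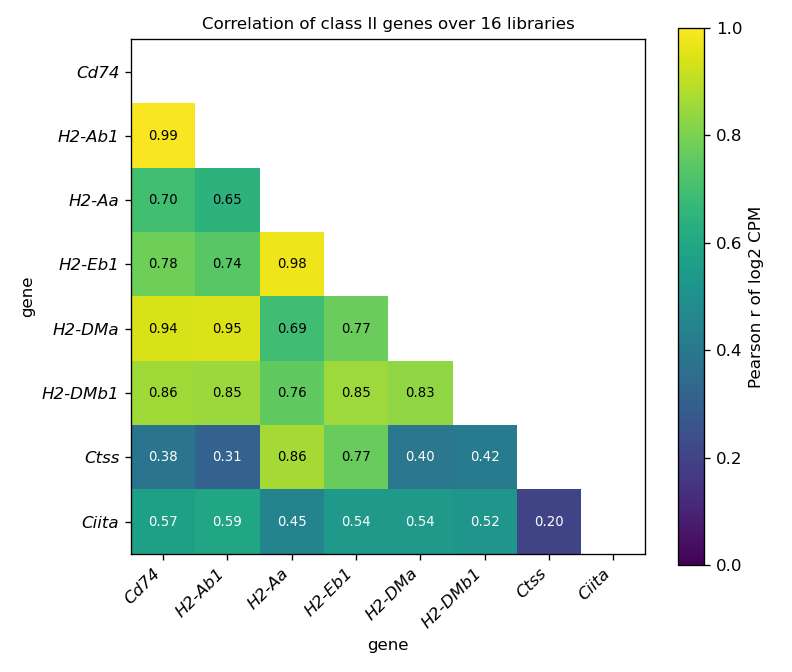
Pearson's r of log2 CPM between each pair of the 8 genes over the 16 libraries, as colour and number. Cd74 with H2-Ab1 (0.99) and H2-Aa with H2-Eb1 (0.98) are the closest pairs, and Ctss with Ciita (0.20) the least close.

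BJIKT was compared with DNCB alone to ask whether the fall was less in mice that received it. In LowAhR+AD+BJ against LowAhR+AD, edgeR called 0 of the 8 genes, as it called 0% of all genes (1405 had an unadjusted p under 0.05, and DESeq2 called 17 genes, none of the 8). The log2 fold changes were positive in 7 of 8 genes with a median of 0.71, and ran from -0.02 for H2-DMb1 to 1.12 for H2-Aa. The groups overlapped in all 8 genes, and did not in 5.08% of all genes tested. Of the 8 genes, 1 had an unadjusted edgeR p under 0.05, H2-DMa, whose change was 0.91 (edgeR adjusted p = 0.50, exact permutation p = 0.229). The median rested on LowAhR+AD+BJ replicate 3: without it the median was -0.03, and Cd74 and H2-Ab1 had changes of -0.08 and -0.09.

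LowAhR+AD+BJ skin was also compared with the untreated groups. Cd74 was called lower against both, H2-DMa against LowAhR and H2-Ab1 against Cont. Both H2-DMa and H2-Ab1 also had negative changes, just outside the threshold, in the other comparison, and the difference between the comparisons was not tested. Against LowAhR, the change was -1.46 for H2-DMa (standard error 0.37, edgeR adjusted p = 0.0233), -1.42 for Cd74 (standard error 0.41, edgeR adjusted p = 0.0428) and -1.39 for H2-Ab1 (standard error 0.43, edgeR adjusted p = 0.060). In these 3 genes all LowAhR+AD+BJ libraries lay below all LowAhR libraries, as they did in 8.19% of all genes tested. Of the 8, 2 were called, where edgeR called 6.77% of all genes. This count was fragile: with 1 library left out it ran from 0 to 4. It was 0 without LowAhR replicate 2 or 3 or LowAhR+AD+BJ replicate 1, 2 or 4, it was 1 without LowAhR replicate 1 or 4, and it was 4 without LowAhR+AD+BJ replicate 3. Against Cont, the log2 change of H2-Ab1 was -1.73 (standard error 0.44, edgeR adjusted p = 0.00935) and that of Cd74 was -1.62 (standard error 0.41, edgeR adjusted p = 0.00994), where 19.9% of all genes were called. These 2 genes lay below Cont without overlap, as did 12.4% of all genes tested. H2-DMa changed by -1.03 and lay just outside the threshold (edgeR adjusted p = 0.0535). Without LowAhR+AD+BJ replicate 3, H2-DMa and H2-DMb1 passed as well and 4 genes were lower. H2-Aa and H2-Eb1 had changes of 0.19 and -0.10 against Cont. LowAhR+AD and LowAhR+AD+BJ were set against the same Cont and LowAhR libraries, so their falls are not independent.

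The genes around the pathway did not move as a block. Over all genes, edgeR called 12.6% in LowAhR+AD against LowAhR and 21.8% against Cont. Of 5 other class II genes in the tables, 2 had enough counts to be tested, H2-Oa and H2-Ob. They encode an inhibitor of DM, averaged below 3 CPM in every group and were not called. H2-Ea-ps, the E alpha locus, had 0 counts in all 16 libraries; C57BL/6 mice are known to make no E alpha chain. Of 8 genes for transcription of class II, only Nfyc, a subunit of the factor that binds the Y box, passed, and it rose: its log2 fold change was 0.98 in LowAhR+AD against LowAhR (edgeR adjusted p = 0.0385) and 1.20 against Cont (edgeR adjusted p = 0.00904). Without LowAhR+AD replicate 1 the former was 0.89 and not called (edgeR adjusted p = 0.0719). None of the 7 tested genes of the interferon gamma axis passed in any comparison with all libraries. Without that library Ifngr1 was lower in LowAhR+AD against Cont (-0.79, edgeR adjusted p = 0.0236). Ifng itself had counts in only 1 library (0.39 CPM in LowAhR+AD+BJ replicate 3).

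Of 7 endosomal genes tested, 1 was higher in LowAhR+AD against LowAhR, 2 against Cont, and 3 in LowAhR+AD+BJ against either untreated group, with none lower. Over all genes, edgeR called 12.6% in LowAhR+AD against LowAhR and 21.8% against Cont. In LowAhR+AD+BJ it called 6.77% against LowAhR and 19.9% against Cont. With all libraries, the counts in LowAhR+AD thus lay near the share over all genes. Without LowAhR+AD replicate 1 the count against LowAhR was 2, with Ctsl (1.17, edgeR adjusted p = 0.0233). With all libraries Ctsl changed by 0.83 there (edgeR adjusted p = 0.224). The count against Cont without replicate 1 was 4, with Ctsb (0.77, edgeR adjusted p = 0.0159) and Ifi30. Ctsd, which encodes cathepsin D, measured 521.1, 485.0, 765.3 and 941 CPM in LowAhR and 973.8, 1151, 1230 and 1322 CPM in LowAhR+AD (log2 fold change 0.79, edgeR adjusted p = 0.0266). Ctsl and Ctsb, for cathepsins L and B, rose in LowAhR+AD+BJ against LowAhR by 1.59 (edgeR adjusted p = 0.0389) and 0.87 (edgeR adjusted p = 0.0308). In each of these comparisons Cd74 was called lower. March1 and March8 encode ubiquitin ligases, of which March1 takes class II off the surface of dendritic cells. Of 3 tested genes of class II turnover 2 passed. March1 fell by 1.30 (edgeR adjusted p = 0.0334) and March8 by 1.08 (edgeR adjusted p = 0.0113) in LowAhR+AD against LowAhR. Without LowAhR+AD replicate 1 the change of March1 was -1.22 and not called (edgeR adjusted p = 0.0626). Of 5 tested genes of costimulation only Cd274, for the inhibitory ligand PD-L1, passed, with a log2 fold change of -1.93 in LowAhR+AD against LowAhR (edgeR adjusted p = 0.00482) and of -1.93 in LowAhR+AD+BJ against LowAhR (edgeR adjusted p = 0.00848). On the T cell side Cd3e, a chain of the T cell receptor complex, measured 4.06, 6.66, 2.60 and 1.67 CPM in LowAhR and 0, 0, 0.16 and 0 CPM in LowAhR+AD, and was 1 of 3 tested genes to pass (edgeR adjusted p = 0.0139).

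Markers of the cells that carry class II were read beside these changes. For the marker counts here and below, edgeR called 12.6% of all genes in LowAhR+AD against LowAhR and 21.8% against Cont. It called 19.9% in LowAhR+AD+BJ against Cont. Cd207, which encodes langerin and was read as a marker of Langerhans cells, measured 9.63, 10.2, 15.5 and 10.3 CPM in Cont. It measured 11.2, 13.1, 12.2 and 7.04 CPM in LowAhR. It measured 0, 0.33, 2.10 and 0.56 CPM in LowAhR+AD and 0, 0, 8.71 and 0 CPM in LowAhR+AD+BJ. Langerin transcript was thus low or absent in 7 of the 8 DNCB-treated libraries, and the exception, LowAhR+AD+BJ replicate 3, is also the library with the highest Cd74 and H2-Ab1 of its group. The fall passed the test in LowAhR+AD against Cont (log2 fold change -3.91, edgeR adjusted p = 0.0492) and not against LowAhR (-3.84, edgeR adjusted p = 0.0720). Without LowAhR+AD replicate 1 the change against Cont was -3.52 and not called (edgeR adjusted p = 0.0693). With all libraries, Cd207 was 1 of 3 tested genes of the Langerhans list called against Cont, and 0 of 3 were called against LowAhR. Without LowAhR+AD replicate 1, 4 genes of the list were tested, and the 1 called against Cont was Hapln3, which was higher. The summed level of that list overlapped (106.5 to 149.1 CPM in LowAhR+AD and 114.2 to 157.3 CPM in LowAhR), since Epcam, which keratinocytes also express, made up most of it.

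Of 10 dendritic cell markers, Cd209a fell (-3.03, edgeR adjusted p = 0.0301) and Fscn1 rose (2.66, edgeR adjusted p = 0.000226) in LowAhR+AD against LowAhR. The sum of that list was 210.3 to 355.5 CPM in LowAhR+AD (263.2 CPM at the lowest without replicate 1) and 414.1 to 581.6 CPM in LowAhR. Fscn1 alone measured 180.0, 74.3, 119.9 and 118.5 CPM in LowAhR+AD and 18.4, 8.96, 19.4 and 30.9 CPM in LowAhR. The sum therefore understates the fall of the rest of the list against LowAhR. Against Cont, only Fscn1 of the 10 was called, and it rose. Cd209a changed by -1.65 against Cont (edgeR adjusted p = 0.179). The sum in Cont was 169.6 to 453.6 CPM and overlapped that of LowAhR+AD. In LowAhR+AD replicate 1, 7 of the 10 genes were at 0. Itgax was at 0 in LowAhR+AD replicate 1. None of 9 tested macrophage markers passed in LowAhR+AD against LowAhR or Cont with all libraries. Their sum overlapped (240.9 to 1653 CPM in LowAhR+AD and 1481 to 1671 CPM in LowAhR). The value of 240.9 CPM is that of replicate 1, and the next lowest was 1009 CPM. Without that library, Cd68 (0.87, edgeR adjusted p = 0.0405) and C1qc (0.99, edgeR adjusted p = 0.0446) were called higher against Cont. In LowAhR+AD+BJ against Cont, Fcgr1 was called higher. Of 8 pan-leukocyte markers only Ptprc, for CD45, fell against LowAhR (-1.17, edgeR adjusted p = 0.0264). Ptprc was also the only one called against Cont, and without LowAhR+AD replicate 1 Tyrobp was called higher there. B cell markers summed to at most 5.75 CPM in any library. Muscle and fat markers moved with DNCB too: 10 of 10 skeletal muscle markers and 7 of 8 adipocyte markers fell in LowAhR+AD against LowAhR (8 and 7 without replicate 1). Muscle markers summed to 524.3 to 4258 CPM in LowAhR+AD and 11033 to 25348 CPM in LowAhR. Of 4 tested neutrophil markers 3 rose, of 6 dermal fibroblast markers 2 fell, and of 15 hair follicle markers 1 rose. In LowAhR+AD against Cont, 14 of the 15 hair follicle markers rose (15 without replicate 1), with a median log2 fold change of 6.17. In that comparison 4 of 4 neutrophil markers rose. There 3 fibroblast, 6 muscle and 3 adipocyte markers fell (4, 6 and 3 without replicate 1). In LowAhR+AD+BJ against Cont, 14 hair follicle markers rose as well. The 8 class II genes summed to 371.5, 713.8, 2266 and 1352 CPM in the LowAhR+AD libraries. The library with the highest class II sum had the lowest muscle sum of that group (524.3 CPM). In LowAhR+AD+BJ the reverse held, since replicate 3 had the highest of both sums (3963 CPM of class II and 11919 CPM of muscle). The part of these cell types in the fall of the class II genes was not tested.

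**Figure D5:**
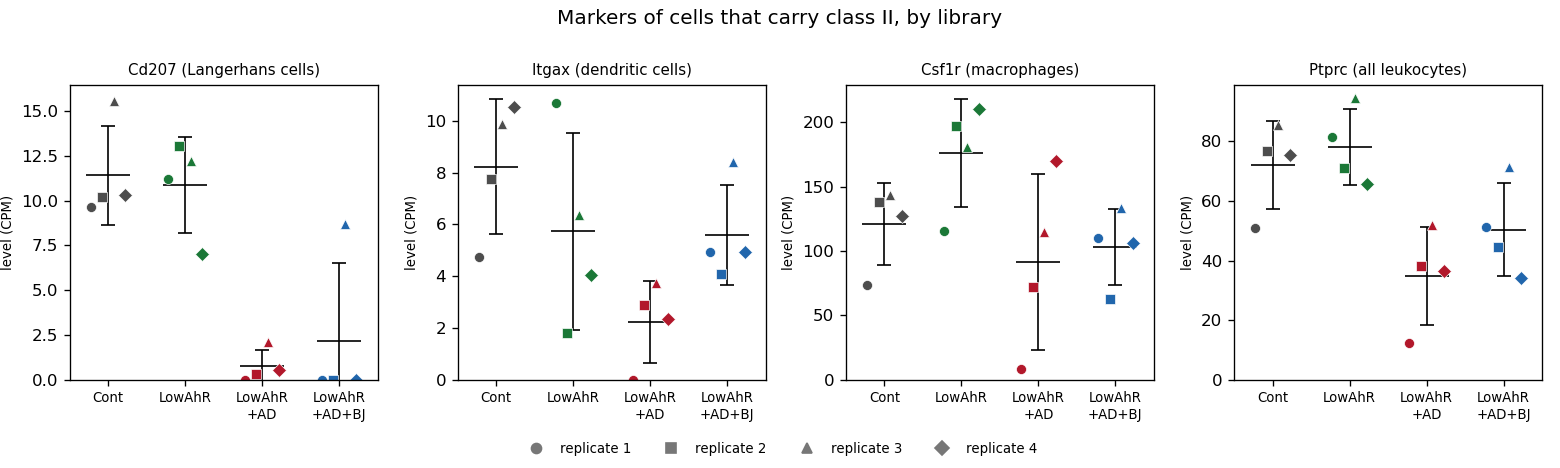
Level in CPM (linear axes from 0) of Cd207, Itgax, Csf1r and Ptprc in the 16 libraries; symbols are replicates, the black mark is the group mean and its bar the SD (n = 4), cut off at 0. Cd207 is at most 2.10 CPM in every DNCB-treated library except LowAhR+AD+BJ replicate 3 at 8.71 CPM, while Csf1r, a macrophage marker, overlaps between all groups.

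Outside the 8 genes and among 11379 genes with a mean of at least 5 CPM, Slco2b1, Serpina3c, Ifi203, Olfm1, Sod1, Ecm2, Nlrp10, Ear1, Lmo2 and Abca9 had the pattern most like the mean of the 8 (each centred and scaled). Their Pearson's r over the 16 libraries was 0.926 to 0.949 and Spearman's rho 0.809 to 0.932. Without the 2 libraries farthest from the median, LowAhR+AD replicates 1 and 2, r was 0.856 to 0.932. On deviations from the group means it was 0.840 to 0.924. Ifi203 is an interferon-inducible gene and Sod1 encodes a superoxide dismutase. The likeness is a description, since these were picked as the closest of all genes.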

How the data were processed

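Skin RNA of 16 male mice (4 groups of 4) was made into QuantSeq 3′ libraries and sequenced single-end on a NextSeq 500. The authors deposited whole-number counts per gene symbol, not normalized. The submitters' notes name Bowtie2, bedtools and mm10, and the methods name ExDEGA. Annotation, strand and the handling of reads that map several times are not given in the sources used here. Groups and replicate numbers come from the labels.

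Counts were filtered (filterByExpr, at least 10 counts and 15 in total), scaled by TMM (factors 0.892 to 1.16) and tested with the quasi-likelihood test of edgeR 4.0.16 in R 4.3.3, with all 16 libraries in 1 model and p adjusted by Benjamini-Hochberg over 14854 genes, called under 0.05. Comparisons share groups. Log2 CPM had a prior count of 2 and was compared by two-sided exact permutation tests. The edgeR p-values rest on a spread between mice estimated over all 4 groups, and the exact permutation p-values on the 4 mice of each group compared. Replicate pairs differed by more than sampling noise (chi-square per degree of freedom 16.9 to 299.5). In simulated data (14399 genes, 195 of them changed, LowAhR+AD against LowAhR), 0% of the genes called were unchanged ones. The test recovered 51% of 4-fold and 6% of 2-fold changes. Planted genes that the filter removed counted as not recovered. Far fewer genes were changed than the 12.6% called in the data, which makes the adjusted threshold stricter, so recovery in the data may differ. No simulated library was given the excess zeros of LowAhR+AD replicate 1, so these figures do not vouch for calls that involve it.

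Named were the 8 genes, every called gene of the pathway lists, H2-Ea-ps, the 10 genes most alike, and marker genes as part of their list, of which 1 Langerhans marker is not reported here. Genes and lists were chosen with earlier results of these data known. Brd2, Dexi and the ratios were added after values were seen. Alternatives were RLE factors, DESeq2 1.42.0, voom (limma 3.58.1), no filter, at least 10 counts in every library, 2-group models, library sizes without muscle, hair and fat markers, a replicate block, and each library left out. Leaving out LowAhR+AD replicate 1 for the lists, ratios and correlations was added after seeing the data.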

Additional observations from a re-analysis of the deposited data

Results flagged for a closer look

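LowAhR+AD+BJ replicate 3 lay far above the other 3 libraries of its group in 4 of the 8 genes, the only 4 of 32 checks (8 genes in 4 groups) in which a library stood apart by Dixon's criterion for 4 samples. Chance flags about 1 in 20 such groups, and the 4 genes are not independent. The library had 1461 CPM of H2-Aa, against 480.6 to 587.8 CPM in the others. It had 606.6 CPM of H2-Eb1, against 122.8 to 161.6 CPM. It had 39.5 CPM of H2-DMb1, against 10.4 to 14.5 CPM, and 877.7 CPM of Cd74, against 214.3 to 295.0 CPM. In the same library Cd207 measured 8.71 CPM and was at 0 in the other 3, and the skeletal muscle markers summed to 11919 CPM, against 3179 to 5433 CPM. The part of either in the high class II levels was not tested.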

How the results depend on the processing

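The fall of Cd74, H2-Ab1 and H2-DMa in LowAhR+AD, against LowAhR or Cont, was called under every alternative run. The number of the 8 genes called against LowAhR was 3, and was 5 with DESeq2, 6 with voom, 5 with at least 10 counts in every library and 6 with the replicate block. With a library left out it was 3 to 6. In LowAhR+AD+BJ against LowAhR, 2 became 3 with DESeq2, voom or at least 10 counts in every library, and 4 with the replicate block. With a library left out it was 0 to 4. Of the 8 alternatives other than leaving a library out, 8 called Cd74 and H2-DMa and 4 called H2-Ab1. Against Cont, 2 became 2 to 4. On deviations from the group means, same-numbered libraries correlated by -0.05 to 0.17 (3 of 24 pairs above 0.1). Their median was -0.007, and that of the 72 other pairs between groups was -0.009. No label says what the numbers mark, and whether they pair the mice was not tested. The cause of the shifts in these counts was not tested.

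Directions turned only for changes that had passed no test. In LowAhR+AD+BJ against LowAhR+AD, H2-DMb1 was 0.012 with voom, and with a library left out the ranges were -0.69 to 0.41 for H2-DMb1, -0.95 to 1.54 for Ciita, -0.089 to 1.04 for H2-Ab1 and -0.078 to 0.97 for Cd74. Ctss ran from -0.52 to 0.14 in LowAhR+AD against Cont and from -0.23 to 0.13 in LowAhR+AD+BJ against LowAhR. In LowAhR+AD+BJ against Cont, H2-Aa ran from -0.33 to 0.36 and H2-Eb1 from -0.995 to 0.15.

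Over all genes, LowAhR+AD against LowAhR gave 765 calls in the 2-group model against 1876, and 1128 to 2015 with a library left out. LowAhR+AD+BJ against LowAhR gave 1666 with DESeq2 against 1005, and 414 to 1469. LowAhR against Cont gave 0, but 493 with DESeq2, 250 in the 2-group model, 45 with the stricter filter and 159 without LowAhR replicate 2. Ciita was lost under the stricter filter and in some 2-group models. Depth limits Ciita most, and a 2-fold change was rarely recovered in simulated data, in which few genes were changed.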
